A study of Homo sapiens with 15 samples.

Results

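The response of human synovial MH7A cells to IL-1β was measured in 6 of the 15 arrays of the series, 3 from cells stimulated with IL-1β alone and 3 from resting cells. The arrays were chosen by their titles and were paired by the number of the experiment, 1 to 3, so that each comparison lies within an experiment. IL-1β-stimulated cells were kept for 13 h with IL-1β at 15 pg/ml and were given neither glucosamine (GlcN) nor alloxan. Resting cells received none of these agents. The other 9 arrays, 3 for each group that also received GlcN, alloxan or both, served to estimate the spread and are shown for a few genes only. MH7A is an established line of synovial cells from a joint with rheumatoid arthritis, immortalized with a viral large T antigen, so that every array comes from 1 line and the experiments repeat the culture, not the donor. Human Gene 1.0 ST arrays (Affymetrix) gave a log2 signal for each transcript cluster, the set of probes for a transcribed locus.

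IL-1β binds the receptor IL1R1, which pairs with the accessory protein IL1RAP and recruits MYD88 and the IRAK kinases. The signal frees the transcription factor NF-κB from its inhibitor IκBα and activates the JNK and p38 kinases. In synovial fibroblasts this pathway is known for cytokines, chemokines and matrix-degrading enzymes, and NF-κB also switches on its own inhibitors.

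The 5 arrays of an experiment had nearly equal median signals, 6.18 to 6.21 in experiment 1, 7.14 to 7.19 in experiment 2 and 7.49 to 7.54 in experiment 3, so levels are set side by side only within an experiment. Among the fibroblast markers measured, 11 of 15 ranked above the median of the genes tested, on average over all arrays. For T cell, B cell and endothelial markers 0 of 8, 0 of 4 and 0 of 8 did so, and 1 of 6 macrophage and 2 of 7 epithelial markers. The median change of these 6 marker lists between IL-1β-stimulated and resting cells lay between -0.04 and 0.05 on the log2 scale. In bulk RNA, a change in the number of cells of a type and a change in RNA per cell cannot be told apart.

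IL-1β-stimulated cells had higher signals of a small set of inflammatory genes. The highest fold changes were those of the costimulatory receptor TNFRSF9 at 3.79-fold, complement C3 at 2.82-fold and the cytokine IL6 at 2.37-fold, each over resting cells. Next to them stood inhibitors of NF-κB, the chemokine CXCL8, which encodes IL-8, and 3 microRNA precursors. Of these precursors, MIR29A had signals near the bottom of the scale. Of 16872 genes tested, 13 were at least 1.5-fold higher and 2 at least 1.5-fold lower in IL-1β-stimulated cells at an unadjusted p under 0.05, or 0.0771% and 0.0119% of the genes. All 13 were higher in 3 of 3 experiments. None of them passed after adjustment: 0 genes, or 0%, had a Benjamini-Hochberg adjusted p under 0.05 in limma with the experiment as a block, and the smallest adjusted p was 0.169. At an unadjusted p under 0.05 alone, 491 genes (2.91%) were higher and 486 (2.88%) lower, and gene-by-gene tests, paired and unpaired, also gave 0 after adjustment. The p-values rest on the residual spread within experiments, pooled over all 15 arrays, which include those given GlcN or alloxan. With the block over only the 6 arrays compared, the smallest limma adjusted p was 0.63.

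**Figure D1:**
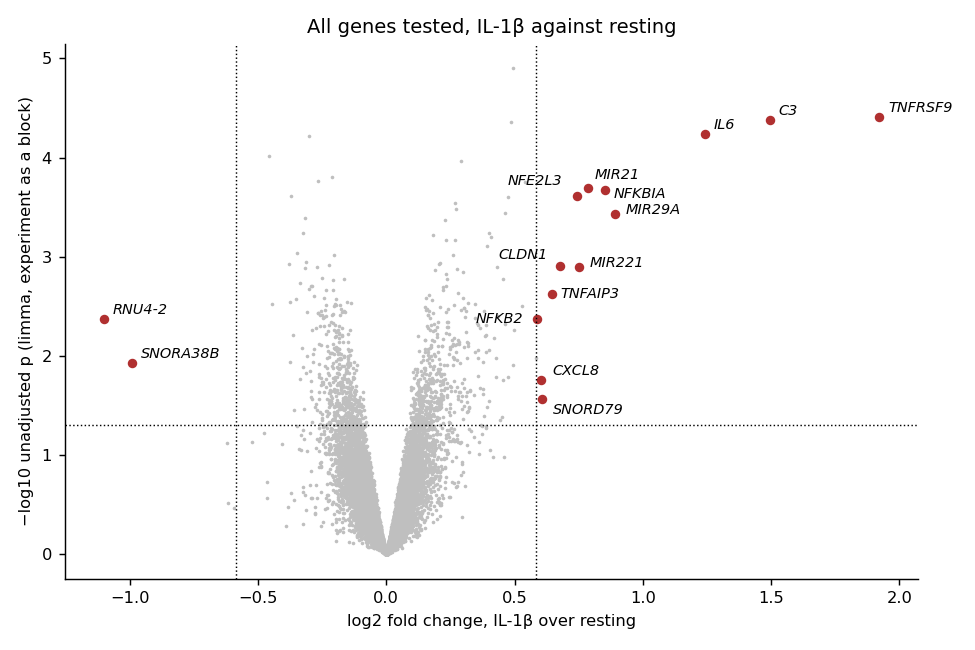
Each point is 1 of the 16872 genes, with the log2 fold change of IL-1β-stimulated over resting cells on the x axis and the negative log10 of the unadjusted limma p on the y axis. Dotted lines mark 1.5-fold and the unadjusted p threshold, red points mark the 13 higher and 2 lower genes past both, and TNFRSF9, C3 and IL6 lie apart at the upper right.

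TNFRSF9, also called 4-1BB, is a receptor of the TNF receptor superfamily known for costimulating T cells. Its log2 signals were 9.91, 9.95 and 9.78 in IL-1β-stimulated cells of experiments 1, 2 and 3, against 6.87, 8.82 and 8.18 in resting cells. The stimulated array lay above its resting partner in each experiment. The log2 fold change was 1.92 ± 1.00 (SD, n = 3 experiments; limma adjusted p = 0.169). C3, the central component of complement, had 7.54, 7.47 and 8.01 in IL-1β-stimulated cells and 4.99, 6.54 and 6.999 in resting cells. Each pair again differed in the same direction, and its log2 fold change was 1.495 ± 0.909 (SD, n = 3; limma adjusted p = 0.169). For IL6, the cytokine that drives the acute phase response, the signals were 8.03, 8.63 and 8.59 in IL-1β-stimulated cells and 6.26, 7.59 and 7.68 in resting cells, higher with IL-1β in each experiment. The change of IL6 was 1.24 ± 0.46 on the log2 scale (SD, n = 3; limma adjusted p = 0.169). In all of these genes the difference in experiment 1 was the largest, at 3.04 for TNFRSF9, 2.54 for C3 and 1.77 for IL6. Without experiment 1 the log2 fold changes were 1.36 for TNFRSF9, 0.97 for C3 and 0.98 for IL6, and C3 then passed at a limma adjusted p = 0.0432.

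**Figure D2:**
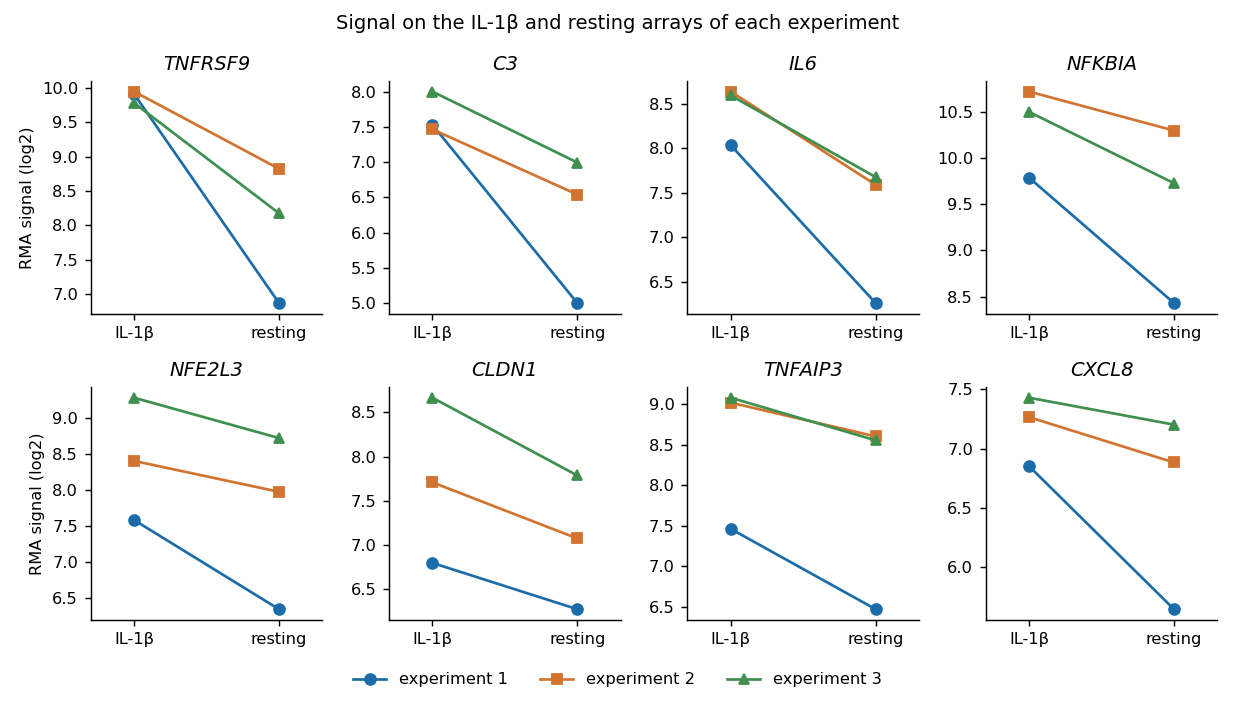
RMA log2 signal (y axis, scaled for each gene) of 8 genes on the IL-1β array and the resting array of each experiment, joined by a line for each of the 3 experiments. Every line is higher on the IL-1β side, and the steepest line is that of experiment 1 for each gene but CLDN1.

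The feedback inhibitors of NF-κB were higher as well. NFKBIA encodes IκBα, which holds NF-κB in the cytoplasm. It had signals of 9.79, 10.72 and 10.50 in IL-1β-stimulated cells and 8.43, 10.30 and 9.73 in resting cells, so that each pair differed in the same direction. The log2 fold change of NFKBIA was 0.85 ± 0.47 (SD, n = 3; limma adjusted p = 0.266). TNFAIP3 encodes A20, a ubiquitin-editing enzyme that ends NF-κB signalling, and had 7.46, 9.02 and 9.08 in IL-1β-stimulated cells and 6.47, 8.60 and 8.56 in resting cells. NFKB2, the p100 precursor of the p52 subunit, had 8.32, 10.18 and 9.87 in IL-1β-stimulated cells against 7.38, 9.97 and 9.25 in resting cells. Both gaps were widest in experiment 1. Their log2 fold changes were 0.64 ± 0.31 for TNFAIP3 and 0.59 ± 0.37 for NFKB2 (SD, n = 3), with limma adjusted p = 0.581 and 0.592. Over the whole list of NF-κB subunits and feedback inhibitors, 13 of 22 measured members were higher in 3 of 3 experiments, where 8.88% of all genes were, and 1 was lower, where 11.3% of all genes were. At an unadjusted p under 0.05, 10 members were higher and 0 lower, where 2.91% and 2.88% of all genes were. The higher members included NFKBIZ, a nuclear IκB protein, at 0.47 and ZC3H12A, an RNase that degrades cytokine mRNA, at 0.43 on the log2 scale. The median log2 fold change was 0.17, against 0 over all genes. RELA, the p65 subunit, stood at 0.07 and REL at 0.16, and the kinases IKBKB and CHUK at 0.01 and -0.11.

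Of the wider list of known NF-κB target genes, 19 of 33 were higher in 3 of 3 experiments and 0 lower. These shares were 57.6% and 0%, beside 8.88% and 11.3% of all genes. The list had 17 members higher at an unadjusted p under 0.05 and 0 lower, where 2.91% and 2.88% of all genes were. It held 7 of the 13 genes past 1.5-fold. Among them were NFKBIA, TNFAIP3 and NFKB2, already counted in the feedback list above, so the lists overlap. The median log2 fold change was 0.20, and within experiments 1, 2 and 3 it was 0.43, 0.12 and 0.16. Of the 19 genes higher in 3 of 3 experiments, 18 had the largest difference in experiment 1 and 1 in experiment 2. Over all 371 genes that were higher in 3 of 3 experiments at an unadjusted p under 0.05, these numbers were 107, 116 and 148 for experiments 1, 2 and 3. Target genes without a clear difference included VCAM1, an adhesion molecule, at 0.02, the urokinase gene PLAU at -0.02 and the superoxide dismutase gene SOD2, whose differences were 0.86, 0.10 and -0.02 in experiments 1, 2 and 3.

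The promoters of these genes are shown because several of the genes at the top of the comparison share a short motif near the transcription start. In RefSeq sequences of build GRCh38.p14, the motif GGANNTTCC, a κB-like sequence read on both strands (GGAANNTCC on the other), was searched in the window from 250 bases before to 50 bases after each start. It was found in 6 of the 10 promoters listed for 8 of the 13 higher genes, and in 4.56% of all 35116 promoters. The genes with a match were TNFRSF9, IL6, CXCL8, NFKBIA, TNFAIP3 and NFKB2, the last not in every promoter listed for it. All of them are on the NF-κB target list, so the share among the higher genes cannot be told apart from membership of that list. CLDN1 and NFE2L3, the higher genes with an entry that are not on it, had no match. No entry was used for C3, MIR21, MIR29A, MIR221 and SNORD79. For comparison, 12 lower genes were taken, those with the lowest fold changes among genes lower in 3 of 3 experiments at an unadjusted p under 0.05. Of the 12 promoters listed for 11 of them, 1 held it. For the NF-κB target list, whose genes are known in part for such sites, it was found in 18 of 40 promoters. The 250 bases before the start of 5 of the genes are given 5′ to 3′ on the strand of the gene, with each κB-like match in capitals.
TNFRSF9, chr1:7940840-7941089, minus strand: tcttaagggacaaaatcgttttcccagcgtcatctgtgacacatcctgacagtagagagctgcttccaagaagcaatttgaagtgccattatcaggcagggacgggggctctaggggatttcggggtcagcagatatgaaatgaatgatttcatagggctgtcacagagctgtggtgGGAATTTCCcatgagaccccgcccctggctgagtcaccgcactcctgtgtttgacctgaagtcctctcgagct
IL6, chr7:22726950-22727199, plus strand: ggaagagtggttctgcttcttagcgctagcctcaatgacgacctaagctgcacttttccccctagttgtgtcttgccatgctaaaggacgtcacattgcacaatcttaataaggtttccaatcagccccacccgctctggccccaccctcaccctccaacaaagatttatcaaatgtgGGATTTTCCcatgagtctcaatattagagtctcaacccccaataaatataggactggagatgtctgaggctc
CXCL8, chr4:73740319-73740568, plus strand: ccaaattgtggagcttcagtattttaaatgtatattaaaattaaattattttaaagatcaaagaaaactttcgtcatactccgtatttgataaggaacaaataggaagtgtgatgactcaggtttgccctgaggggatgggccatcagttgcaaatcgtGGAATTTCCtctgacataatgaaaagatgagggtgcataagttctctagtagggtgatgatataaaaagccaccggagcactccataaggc
NFKBIA, chr14:35404750-35404999, minus strand: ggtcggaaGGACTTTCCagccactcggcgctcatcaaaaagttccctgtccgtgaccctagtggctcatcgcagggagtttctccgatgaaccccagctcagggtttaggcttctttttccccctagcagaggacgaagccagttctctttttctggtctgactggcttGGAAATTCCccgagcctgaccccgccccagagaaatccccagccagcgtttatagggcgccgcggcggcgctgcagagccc
TNFAIP3, chr6:137867009-137867258, plus strand: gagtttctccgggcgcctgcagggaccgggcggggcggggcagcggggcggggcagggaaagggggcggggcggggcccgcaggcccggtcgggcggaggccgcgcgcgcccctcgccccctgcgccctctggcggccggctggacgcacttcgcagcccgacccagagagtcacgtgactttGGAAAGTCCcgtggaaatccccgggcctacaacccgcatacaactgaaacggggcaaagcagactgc

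The κB-like match began 73 bases before the start in TNFRSF9, 72 in IL6, 91 in CXCL8, 67 in TNFAIP3, and both 242 and 81 in NFKBIA. The letters GGAATTTCC were the same in TNFRSF9 and CXCL8, and the chemokine genes CXCL1 and CXCL2 held them 78 and 77 bases before the start. The AP-1 motif TGANTCA, present in 7.71% of all promoters, was found 44 bases before the start in TNFRSF9 and 137 in CXCL8. A C/EBP-like motif, TTGCNNAA or TTNNGCAA, present in 10.5% of promoters, lay 155 bases before the start in IL6. These matches describe the letters of the windows and are not measurements of binding.

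CXCL8 had log2 signals of 6.85, 7.27 and 7.43 in IL-1β-stimulated cells and 5.65, 6.88 and 7.202 in resting cells. The difference was 1.20 in experiment 1 and 0.38 and 0.23 in experiments 2 and 3. Its log2 fold change was 0.60 ± 0.53 (SD, n = 3; limma adjusted p = 0.752) and 0.30 without experiment 1. Of the 8 measured genes of the neutrophil chemokine list, which also holds the platelet factor PF4, 4 (50%) were higher in 3 of 3 experiments. The share of all genes was 8.88%. At an unadjusted p under 0.05, 3 were higher, where 2.91% of all genes were. Besides CXCL8 these were CXCL1 at 0.53 ± 0.39 and CXCL2 at 0.46 ± 0.25 (SD, n = 3). CXCL3 was at 0.00 on the same scale. Of 11 chemokines for monocytes and lymphocytes, 1 was higher in 3 of 3 experiments, CCL5 at 0.19, a share of 9.09% beside 8.88% of all genes. CCL2, the main monocyte chemokine, had 5.16, 6.05 and 6.53 in IL-1β-stimulated cells and 5.16, 6.11 and 6.32 in resting cells, with no common direction.

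Among other cytokines and growth factors, 8 of 15 were higher in 3 of 3 experiments, or 53.3% beside 8.88% of all genes. At an unadjusted p under 0.05, 4 were higher, where 2.91% of all genes were. IL32, an inflammatory cytokine abundant in rheumatoid synovium, was at 0.54 ± 0.36 (SD, n = 3), and CSF1, the growth factor of macrophages, at 0.23. TNF had a log2 fold change of 0.10 and IL24 one of -0.06. In the IL-6 family and its JAK-STAT3 pathway, 5 of 19 genes were higher and 2 lower in 3 of 3 experiments. The share higher was 26.3%, beside 8.88% of all genes, and the share lower, 10.5%, was near the 11.3% of all genes. The higher genes included the shared receptor IL6ST at 0.26 and the inhibitor SOCS3 at 0.17. In complement, 6 of 19 were higher and 1 lower (31.6% and 5.26%, beside 8.88% and 11.3% of all genes). Factor B of the alternative pathway, CFB, was at 0.58 ± 0.56 (SD, n = 3) and the protease C1S at 0.38. CFB, like C3, had its largest difference in experiment 1, with signals of 9.11, 9.51 and 9.27 in IL-1β-stimulated cells and 7.89, 9.14 and 9.10 in resting cells. The TNF ligand and receptor superfamily apart from TNFRSF9 was close to 0. Of 30 measured members, TNFRSF9 among them, 5 were higher and 1 lower in 3 of 3 experiments. These shares were 16.7% and 3.33%, beside 8.88% and 11.3% of all genes. At an unadjusted p under 0.05, 1 was higher, TNFRSF9 itself, where 2.91% of all genes were.

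Genes of IL-1 receptor signalling had log2 fold changes between -0.19 and 0.17. IL1R1 had equal values on the IL-1β and resting arrays of experiments 1 and 2, at 5.66 and 7.03, and 6.71 in IL-1β-stimulated cells against 6.84 in resting cells of experiment 3. IL1RAP had a log2 fold change of 0.01, and IL1B itself one of 0.12 with signals of 4.61, 5.29 and 6.33 in IL-1β-stimulated cells and 4.61, 5.29 and 5.97 in resting cells. Exactly equal values were common: 26.4%, 17.2% and 17.0% of the genes had them in experiments 1, 2 and 3, and such pairs were counted as neither higher nor lower. Of 21 genes of IL-1 receptor signalling, 3 were higher and 6 lower in 3 of 3 experiments, or 14.29% and 28.57%, where 8.88% and 11.3% of all genes were. MAPK9, which encodes the kinase JNK2, was at -0.19, the pathway inhibitor TOLLIP at -0.14, the p38-activating kinase MAP2K3 at 0.17 and IRAK2 at 0.13, each at an unadjusted p under 0.05. In the IL-1 family, IL1A was at 0.29 and IL18 at -0.30.

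Genes that act on joint tissue showed smaller differences. Of 29 matrix proteases and inhibitors, 8 were higher in 3 of 3 experiments and 0 lower (27.6% and 0%, beside 8.88% and 11.3% of all genes). At an unadjusted p under 0.05, 3 were higher, where 2.91% of all genes were. These were ADAMTS12, a secreted metalloproteinase, at 0.36, the sheddase ADAM17 at 0.18 and the inhibitor TIMP3 at 0.14. MMP1, an interstitial collagenase, had 7.13, 9.18 and 10.37 in IL-1β-stimulated cells and 7.13, 8.68 and 10.58 in resting cells. MMP3, the stromelysin gene, had 6.49, 6.81 and 8.38 in IL-1β-stimulated cells and 6.21, 6.96 and 8.43 in resting cells. Neither collagenase nor stromelysin had a common direction over the experiments. The dim gene PTGS2, which encodes the inducible cyclooxygenase COX-2, had 4.45, 5.74 and 5.68 in IL-1β-stimulated cells and 4.45, 5.74 and 5.79 in resting cells. In prostaglandin synthesis and its receptors, 2 of 16 genes were higher in 3 of 3 experiments (12.5%, near the 8.88% of all genes), with the receptor PTGER4 at 0.17.

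Adhesion molecules included 9 of 21 members higher in 3 of 3 experiments and 0 lower (42.9% and 0%, beside 8.88% and 11.3% of all genes). The ligand of leukocyte integrins, ICAM1, was at 0.43 ± 0.20 (SD, n = 3) and the integrin subunit ITGAV at 0.27. CLDN1, a tight junction protein, had 6.80, 7.71 and 8.66 in IL-1β-stimulated cells and 6.28, 7.08 and 7.79 in resting cells. Its log2 fold change was 0.68 ± 0.18 (SD, n = 3; limma adjusted p = 0.516), and unlike the NF-κB targets its difference was smallest in experiment 1. Of the 15 claudin and tight junction genes measured, 1, CLDN1, was higher in 3 of 3 experiments, or 6.67% beside 8.88% of all genes. NFE2L3, a transcription factor related to NRF2, had 7.59, 8.41 and 9.28 in IL-1β-stimulated cells and 6.35, 7.98 and 8.73 in resting cells, or 0.74 ± 0.43 on the log2 scale (SD, n = 3; limma adjusted p = 0.266). Of 23 antioxidant and NRF family genes, 1, NFE2L3, was higher in 3 of 3 experiments and 5 were lower, or 4.35% and 21.7% beside 8.88% and 11.3% of all genes, and the list median was -0.05.

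Interferon-stimulated genes were higher in 3 of 3 experiments for 10 of 28 members and lower for 1 (35.7% and 3.57%, beside 8.88% and 11.3% of all genes), with a median of 0.07. The members at an unadjusted p under 0.05 included TAP1, the peptide transporter of antigen presentation, at 0.32, the transcription factor IRF9 at 0.30 and the proteasome subunit PSMB9 at 0.21. In immediate early genes 6 of 29 were higher and 1 lower (20.7% and 3.45%, beside 8.88% and 11.3% of all genes). At an unadjusted p under 0.05, 1 of them, IER3, was higher, where 2.91% of all genes were. In hyaluronan and matrix genes 5 of 17 were higher and 2 lower (29.4% and 11.8%). The share higher stood beside 8.88% of all genes, and the share lower was near the 11.3% of all genes. For DNA replication and mitosis, 8 of 30 genes (26.7%) were lower in 3 of 3 experiments and 0 higher, where 11.3% and 8.88% of all genes were. The log2 fold changes of these 30 genes ran between -0.19 for the helicase subunit MCM6 and 0.07 for the kinase AURKB. At an unadjusted p under 0.05, 1 of them, MCM6, was lower, where 2.88% of all genes were. The enzyme OGT, which attaches O-GlcNAc and is the target of alloxan in the study, was at 0.14, with 9.01, 10.05 and 10.43 in IL-1β-stimulated cells and 9.01, 9.80 and 10.27 in resting cells. Among 11 reference genes 2 were higher and 3 lower in 3 of 3 experiments, between -0.20 for PPIA and 0.16 for TBP. These shares, 18.2% and 27.3%, were both above the 8.88% and 11.3% of all genes. A share above that of all genes was thus also seen in genes used as references, which limits what such shares say about the other lists.

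**Figure D3:**
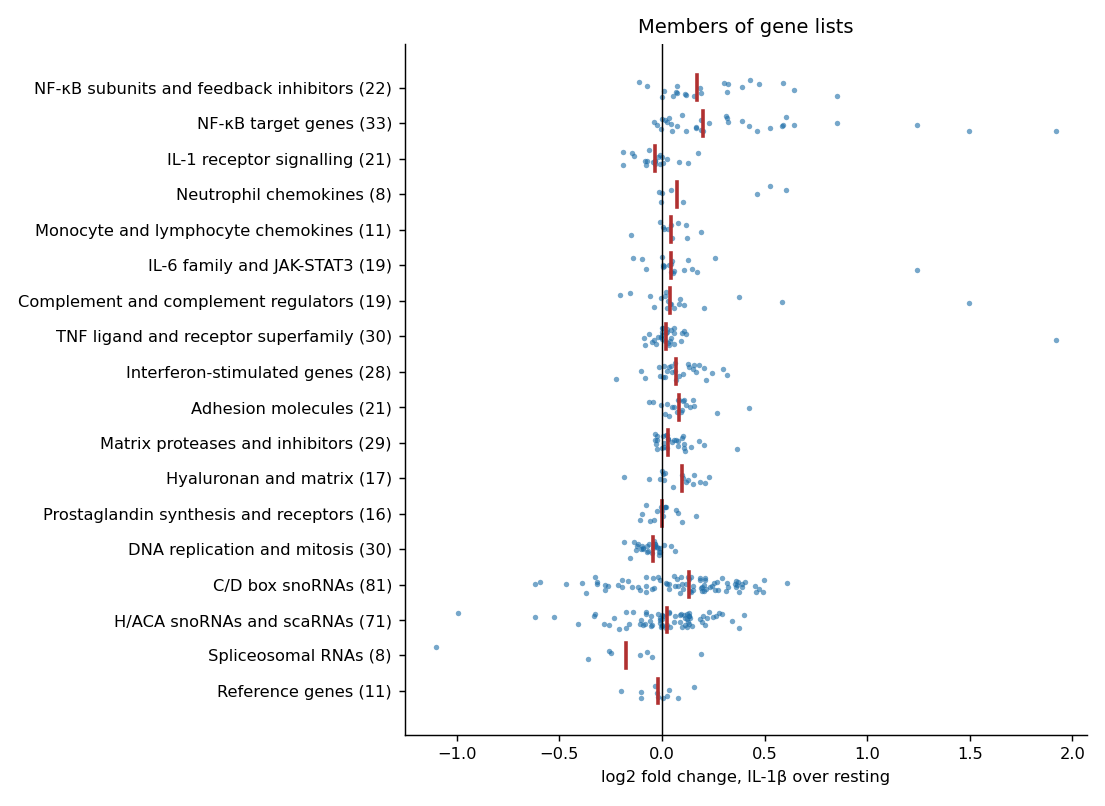
Each point is the log2 fold change of IL-1β-stimulated over resting cells (x axis) of 1 gene, in rows by list with the number of genes measured, and red bars are list medians. The NF-κB target list has a median of 0.20 and reaches 1.92 at TNFRSF9, while most other lists lie close to 0 with 1 or a few genes to the right.

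The precursors of 3 microRNAs were among the 13 higher genes. The arrays measured their transcript clusters and not the mature microRNAs, which are small RNAs that bind mRNA through bases 2 to 8, the seed. The mature sequences that RefSeq (GRCh38.p14) lists for the arms best known from these precursors are given 5′ to 3′ with the seed in capitals, to show which target-recognition sequences the loci encode.
hsa-miR-21-5p, chr17:59841273-59841294, plus strand: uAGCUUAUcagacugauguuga
hsa-miR-29a-3p, chr7:130876748-130876769, minus strand: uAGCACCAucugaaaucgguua
hsa-miR-221-3p, chrX:45746180-45746202, minus strand: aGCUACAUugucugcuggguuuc

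The 3 seeds differ from each other. MIR21, known as an NF-κB and STAT3 responsive microRNA, had log2 signals of 8.58, 9.28 and 8.91 in IL-1β-stimulated cells and 7.89, 8.39 and 8.13 in resting cells. Each pair differed in the same direction, and its differences of 0.69, 0.88 and 0.78 were the most even of the 13 genes, with a log2 fold change of 0.79 ± 0.10 (SD, n = 3; limma adjusted p = 0.266). MIR221 had 5.84, 7.61 and 7.63 in IL-1β-stimulated cells and 5.70, 6.51 and 6.61 in resting cells, so that experiment 1 showed little difference, and MIR222, which lies beside it, was at 0.07. The MIR29A signal was 4.35, 5.21 and 5.87 in IL-1β-stimulated cells and 3.83, 4.44 and 4.48 in resting cells. It lay among the dimmest genes tested, at percentile 1.08 on average over the 15 arrays, so that its log2 fold change of 0.89 rests on signals near the bottom of the scale. Genes were tested if they passed the 20th percentile on 3 or more arrays. MIR29A lay above that percentile on the IL-1β arrays (4.20, 5.15 and 5.58) and below it on the resting arrays (4.20, 5.09 and 5.56). It thus met the filter through the group in which it is high, and its place among the 13 genes carries little weight. The small nucleolar RNA SNORD79 had 8.45, 9.04 and 9.08 in IL-1β-stimulated cells and 8.15, 8.13 and 8.46 in resting cells. These 4 small RNA genes had their largest difference in experiment 2 or 3, while 8 of the 9 protein-coding genes had it in experiment 1.

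**Figure D4:**
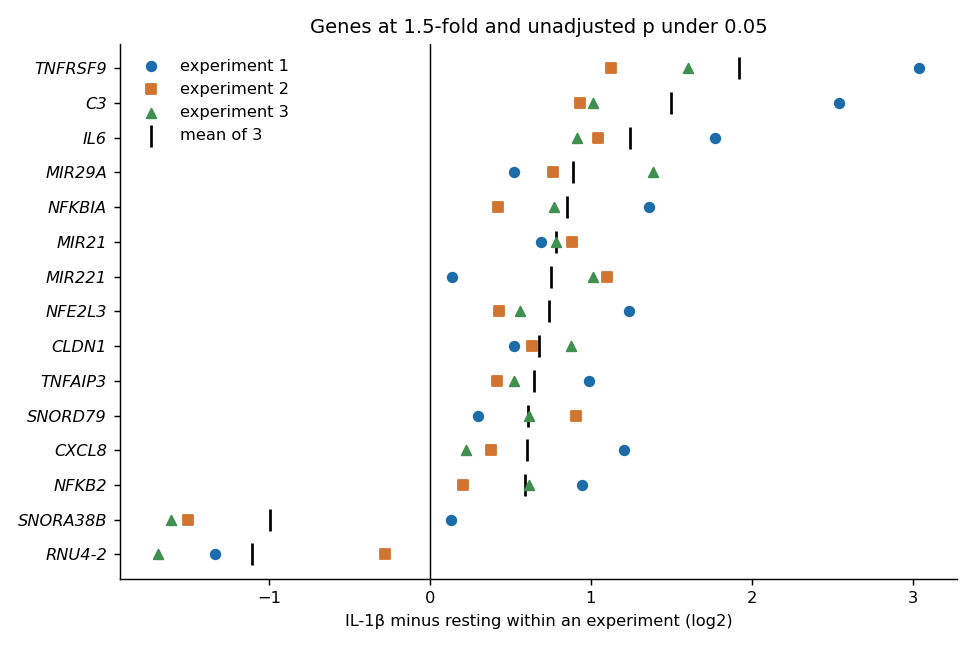
Log2 difference between the IL-1β array and the resting array (x axis) in each of the 3 experiments for the 13 higher and 2 lower genes, with the mean as a black bar. TNFRSF9, C3 and IL6 have their largest value in experiment 1, MIR21 has nearly equal values, and SNORA38B is at 0.13 in experiment 1 and at -1.501 and -1.61 in experiments 2 and 3.

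Both genes past 1.5-fold in the lower direction encode small noncoding RNAs. RNU4-2, a U4 RNA of the spliceosome, had 4.23, 5.84 and 4.47 in IL-1β-stimulated cells and 5.56, 6.12 and 6.16 in resting cells, a log2 fold change of -1.10 ± 0.73 (SD, n = 3; limma adjusted p = 0.592). Its near-identical copy RNU4-1 had differences of 0.66, 0.22 and -1.64 in experiments 1, 2 and 3, against -1.34, -0.28 and -1.69 for RNU4-2. RNU4-2 was also dim, at percentile 7.17 on average over all arrays. Its signal of 4.47 with IL-1β in experiment 3 lay below the 20th percentile of that array, 5.58. In experiment 1 its 4.23 lay just above the 20th percentile, 4.20. RNU4-2, MIR29A and MIR221 were too dim to be tested with the filter at the 50th percentile, and so were not among the genes called there. Whether the probes tell the copies apart was not tested, and the value of RNU4-2 is uncertain. SNORA38B, an H/ACA guide RNA, had 8.80, 9.25 and 9.35 in IL-1β-stimulated cells and 8.67, 10.75 and 10.96 in resting cells, lower in 2 of 3 experiments, with a log2 fold change of -0.99 ± 0.98 (SD, n = 3; limma adjusted p = 0.688). The small RNA classes differed between experiments. The median difference of 8 spliceosomal RNAs was 0.20, 0.13 and -1.01 in experiments 1, 2 and 3, and that of 81 C/D box small nucleolar RNAs was 0.06, 0.46 and 0.00. Of the C/D box RNAs, 62 had their largest difference in experiment 2, and 13 were higher in 3 of 3 experiments and 0 lower. Of 71 H/ACA and scaRNAs, 12 were higher in 3 of 3 experiments and 1 lower. The shares higher were 16.0% and 16.9%, and those lower 0% and 1.41%, beside 8.88% and 11.3% of all genes.

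Several of the 15 genes no longer met the fold or p threshold when 1 experiment was left out. Without experiment 1, TNFAIP3 stood at 0.47, NFE2L3 at 0.49, NFKB2 at 0.41 and CXCL8 at 0.30 on the log2 scale, all below 1.5-fold. Without experiment 2, MIR221 was at 0.58 and SNORD79 at 0.46, and without experiment 3 CLDN1 was at 0.58, all below 1.5-fold. MIR221 and CLDN1 were then just under that line, and CLDN1 differed by 0.52, 0.63 and 0.88 in experiments 1, 2 and 3. RNU4-2 and SNORA38B stood at -0.81 and -0.68 without experiment 3 and no longer passed an unadjusted p of 0.05. The same held for SNORD79 at 0.60 and NFKB2 at 0.575 without experiment 3, NFKB2 also being below 1.5-fold. Without experiment 2 it held for CXCL8 at 0.71 and SNORA38B at -0.74. Over each of the 6 arrays or 3 experiments left out, TNFRSF9 stayed between 1.36 and 2.34, C3 between 0.97 and 1.78, IL6 between 0.98 and 1.46, NFKBIA between 0.60 and 1.07 and MIR21 between 0.70 and 0.84.

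The other IL-1β-stimulated groups were measured against the same resting arrays, so their values are given side by side and without a test. TNFRSF9 differed from resting cells by 1.72 ± 0.78 with GlcN, 1.62 ± 0.87 with GlcN plus alloxan, 1.87 ± 0.88 with alloxan and 1.92 ± 1.00 with IL-1β alone (SD, n = 3, log2 scale). IL6 differed by 0.17 ± 0.44, 0.13 ± 0.22, 1.03 ± 0.50 and 1.24 ± 0.46 in the same order of groups. The mean difference of TNFRSF9 thus lay above 1 in all 4 groups, and that of IL6 lay under its SD in both groups given GlcN. C3 differed by 0.61 ± 0.42, 0.34 ± 0.41, 0.74 ± 0.56 and 1.495 ± 0.909. The values of CXCL8 were 0.23 ± 0.25, 0.55 ± 0.44, 1.51 ± 0.83 and 0.60 ± 0.53, highest in the group given alloxan. MIR21 had -1.002 ± 0.278, -0.99 ± 0.29, 0.28 ± 0.17 and 0.79 ± 0.10, below resting cells in both groups given GlcN.

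**Figure D5:**
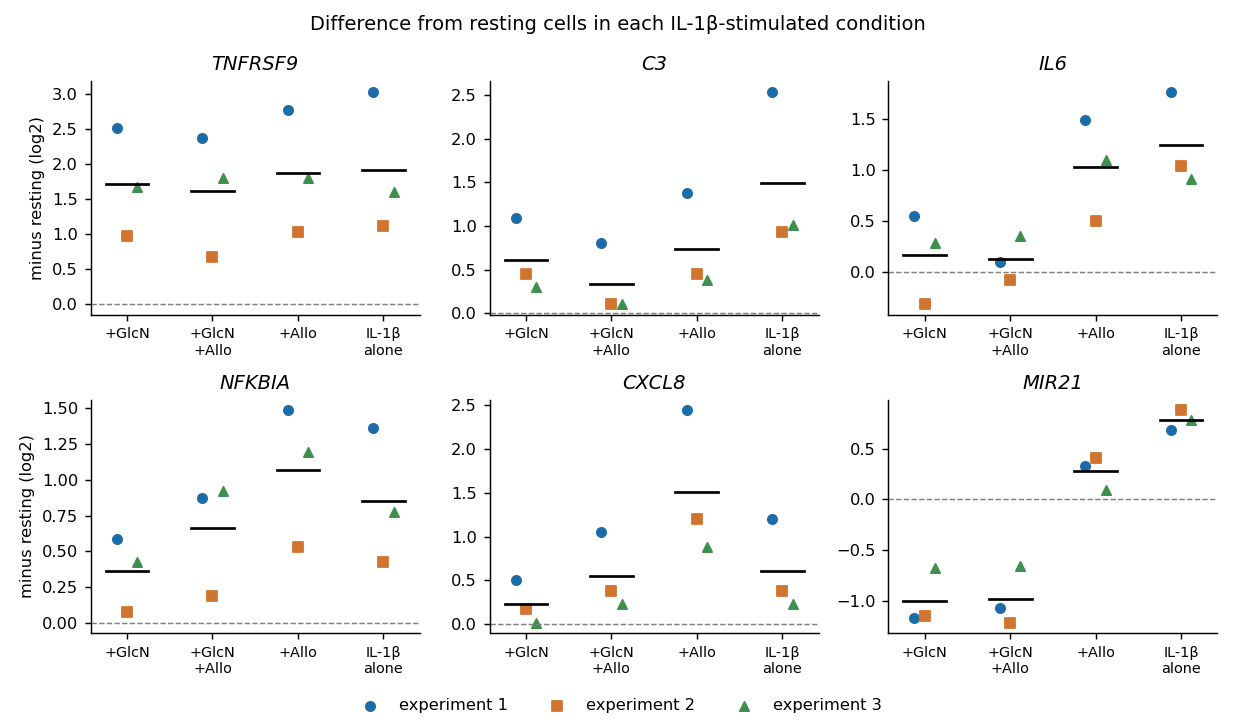
Log2 difference from the resting array of the same experiment (y axis) for 6 genes in cells given IL-1β together with GlcN, GlcN plus alloxan (Allo) or alloxan, or IL-1β alone; points are the 3 experiments, bars the means, and the dashed line the resting level. TNFRSF9 lies between 1.62 and 1.92 on average in every group, and MIR21 is below the dashed line in both GlcN groups.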

How the data were processed

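Total RNA of MH7A cells was hybridised to Affymetrix Human Gene 1.0 ST arrays. The authors ran RMA in the Expression Console software of Affymetrix, and the deposited values are log2 signals of 33297 transcript clusters. The software version was not given in the sources used here. Background correction and normalization were therefore kept as deposited. Clusters with 1 symbol in the platform annotation (19460) were used, and 19429 were named by gene ID through RefSeq. Each symbol was represented by its brightest cluster, and symbols were tested if that cluster passed the 20th percentile on 3 or more arrays, leaving 16872 of 18417 symbols.

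Groups and experiment numbers came from the sample titles. limma 3.58.1 in R 4.3.3 was fitted to all 15 arrays with the experiment as a block, with two-sided p-values and Benjamini-Hochberg adjustment over all genes tested. Fold changes compare the group means of the log2 values, and errors are the SD of 3 within-experiment differences. The block left 8 residual degrees of freedom and a median standard error of 0.0647. The labels give each condition 1 array per numbered experiment, and same-numbered arrays deviated together from their group means (correlations 0.621 to 0.848, others -0.656 to -0.068), so the numbers pair the arrays. No 2 arrays were duplicates. An exact sign-flip test over 3 pairs cannot go below p = 0.25 and was not used. The number of arrays limits the precision, and no detection call was used.

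Genes named were those the study lists for IL-1β, up to 12 in each direction with the largest change at an unadjusted p under 0.05 and 1 sign in 3 experiments, up to 3 members of each list with the smallest p, and fixed pathway genes. Others, such as NFKB2, SNORA38B, RNU4-1, MAP2K3 and further list members, were named after their values were seen. The genes, lists and the threshold were chosen with earlier results of these data known, so lists are described by counts and medians and were not tested. Alternatives were other filters, cluster averages, quantile or median scaling, an intensity trend, fits without the block or over the 6 arrays, t-tests, and leaving out arrays or experiments. The unpaired t-test of the methods was run on the deposited values. The fit was tested on simulated data. Figures were drawn with matplotlib 3.10.9 in Python 3.11.15.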

Additional observations from a re-analysis of the deposited data

How the results depend on the processing

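With the experiments unpaired, that is with no replicate block, 3 genes (TNFRSF9, C3 and IL6) were at least 1.5-fold higher and 0 lower at an unadjusted p under 0.05, against 13 and 2 with the block. Without the block the standard error was 0.596 for every gene, so these 3 calls reflect the size of the fold change and not the spread of each gene. The unpaired t-test of the methods, run here on the deposited values, gave 2 higher and 0 lower, and the paired t-test 3 and 0. The detailed data of the study also hold further normalized values, so these counts are not directly comparable with its own list. With the replicate block over only the 6 arrays compared, 11 were higher and 1 lower, and with a filter at the 50th percentile 11 and 1. A shift to equal medians gave 10 and 2, and moved the median of all genes by -0.03. Over the settings that left out an array or an experiment, the counts ran from 11 to 21 higher and from 0 to 7 lower, and those past an adjusted p under 0.05 from 0 to 5 higher and from 0 to 1 lower. Without experiment 1, C3 passed. Without the resting array of experiment 2, GPRC5B, NFKB2, NFKBIA, SLIT2 and TNFRSF9 were higher and ZNF569 lower (limma adjusted p 0.00964 to 0.0367), and in the other settings 0 passed.

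Of 104 named genes, 95 had the opposite sign in none of the settings, of 19, that gave them a value. Dim genes had none with the filter at the 50th percentile, and CCL7 and IL1B came to 0 in a setting with arrays left out. IL1RAP was at -0.0141 after quantile normalization and -0.0212 with equal medians, and MMP3 at -0.00106 with equal medians. With arrays left out, IL1RAP ran from -0.000159 to 0.0146, MMP3 from -0.101 to 0.115, MMP1 from -0.105 to 0.375, CCL2 from -0.0311 to 0.11, CLDN5 from -0.00585 to 0.0874, IL1R1 from -0.0762 to 0.0166, IL24 from -0.18 to 0.0569, PTGS2 from -0.0651 to 0.0142 and RNU4ATAC from -0.726 to 0.255. The causes were not tested.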

Other observations

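Genes outside the inflammatory lists had some of the smallest p-values and were singled out after their values were seen. GPRC5B, an orphan receptor coupled to G proteins, had the smallest p of all genes (limma, unadjusted p = 1.26e-05, adjusted p = 0.169). Its log2 signals were 10.77, 11.70 and 12.02 in IL-1β-stimulated cells and 10.14, 11.39 and 11.48 in resting cells, a difference of 0.49 ± 0.17 (SD, n = 3), higher in 3 of 3 experiments. NRP2, a coreceptor for semaphorins and VEGF-C, had 6.72, 7.09 and 7.85 in IL-1β-stimulated cells and 5.98, 6.81 and 7.41 in resting cells. GUCY1B1, a subunit of the guanylate cyclase that senses nitric oxide, was lower in 3 of 3 experiments, with 6.99, 8.17 and 8.48 in IL-1β-stimulated cells and 7.28, 8.59 and 8.67 in resting cells (limma adjusted p = 0.169 for both). UBA7, the activating enzyme of the ubiquitin-like protein ISG15, was at 0.29 and TAPBP, the tapasin of antigen presentation, at 0.27.

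In a fit over all transcript clusters, those without a listed symbol passed 1.5-fold and an unadjusted p under 0.05 more often than named ones. Of 8281 clusters without a symbol, 66 were higher and 7 lower (0.882%), against 15 and 2 of 17809 clusters with 1 symbol (0.0955%). Their median standard error was 0.108, against 0.0666, and 0 clusters passed after adjustment in limma.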
